A study of Saccharomyces cerevisiae with 6 samples.

Results

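The genes described here encode the mitochondrial machinery of respiration in budding yeast: 43 nuclear ORFs, of 5786 ORFs with a value in the deposited coverage table. They were listed by function, though with earlier results of these data known: 14 of the TCA cycle, 9 of complex III, 9 of complex IV with cytochrome c, and 11 of ATP synthase. All 43 passed the filter on low coverage and stood among the 5208 ORFs tested. Poly(A) RNA was sequenced from exponentially growing Saccharomyces cerevisiae in rich medium, in 3 groups of 2 libraries each: a wild type, a strain deleted for rtt109 and a strain deleted for both hst3 and hst4. Rtt109 is the acetyltransferase that acetylates lysine 56 of newly made histone H3, and the sirtuins Hst3 and Hst4 take that acetyl group off again. RNA of Schizosaccharomyces pombe was added as a spike-in, and the authors scaled the coverage to it.

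Per the labels, all strains lacked BAR1 (replaced with HIS3) and carried URA3::GDP-TK(7x) and AUR1c::ADH-hENT1, which let cells take up and use thymidine analogues. The wild type was labelled MATa, with ADE2 restored and RNA polymerase II tagged as Rpb3-3HA::TRP. The rtt109 strain was labelled MATa with Δrtt109::Kan, ade2-1 not restored, GAL psi+ RAD5+, and no tag. The hst3 hst4 strain carried Δhst3::HygMX and Δhst4::NatMX with the restored ADE2 and the tag, and was labelled MATalpha. The deletions, the ADE2 state, the tag and the GAL psi+ RAD5+ background therefore cannot be told apart in comparisons with the rtt109 strain. No label says that the libraries of a group came from separate cultures. The p-values therefore measure the spread between these libraries, which may be technical. In the limma fit that spread was drawn largely from all ORFs tested (32.2 prior against 3 residual degrees of freedom). A standard error thus reflects little of a gene's own spread.

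Coverage of RTT109 was 0.778 and 0.845 in wild type, against 0 and 0.00132 where the gene was deleted. HST3 was at 1.29 and 1.37 in wild type, against 0.000743 and 0 where deleted, and HST4 at 0.49 and 0.721 against 0.00399 and 0. The mating type label of the hst3 hst4 strain went against its RNA: the a-specific receptor gene STE2 stood at 22.9 and 24 there, and the alpha-specific STE3 at 0.0306 and 0.0433. The summed coverage of a library lay between 474278 and 784679, lowest in the 2 rtt109 libraries. In the table, coverage of both strands lay to the left of the feature labels, by 100 bases on most chromosomes, by 150 on most of chromosome 2 and by 400 on most of chromosome 10, in all 6 libraries. Coverage was therefore moved by these offsets before it was averaged over an ORF.

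The TCA cycle oxidises acetyl-CoA in the mitochondrial matrix and passes electrons to the respiratory chain. Complex III and complex IV, joined by cytochrome c, carry these electrons to oxygen, and ATP synthase uses the resulting proton gradient to make ATP. In yeast growing on glucose, respiration genes are held low by glucose repression, and the Hap2/3/4/5 complex, which binds CCAAT boxes, is their best-known activator.

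Promoter windows of 300 bases, from 450 to 151 bases before each start codon, were read from assembly R64 of RefSeq for all 43 members by locus tag. CCAAT, searched on both strands, was found in 34 of the 43 windows (79.1%), against 45.1% of 6000 promoters. The share was 11 of 11 for ATP synthase, 8 of 9 for complex III, 6 of 9 for complex IV with cytochrome c and 9 of 14 for the TCA cycle. The longer motif TNATTGGT, whose matches all hold a CCAAT match on the other strand, was found in 14 of 43 windows (32.6%) against 5.33% of all promoters. It was in 2 of 14 TCA cycle windows and in 12 of the other 29. GGTCAC, a box of the Rtg1/Rtg3 retrograde factors, was found in 7 of 43 windows (16.3%) against 6.38%, and the 12-base motif of the haem-responsive factor Hap1 in the QCR6 window alone, against 0.267%. Of the member windows, 16 overlapped a neighbouring protein-coding gene, as did 50% of all windows. A match is a description of the letters and not evidence of binding.

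The windows of 6 members are shown, picked by the RNA values below, whichever motifs they hold. The members are the 3 TCA cycle genes with the largest differences from wild type and the most highly covered gene of each other class. A relation of motif to RNA was not tested. Each window reads 5′ to 3′ on the strand of the gene, with CCAAT or its reverse complement ATTGG in capitals. IDH1 and CYC1 have no match in this window, SDH2 and ATP17 have 2 each, and CIT1 and QCR7 have 1 each. The IDH1 window holds a GGTCAC match.
CIT1 chr14:631212-631511 (minus strand): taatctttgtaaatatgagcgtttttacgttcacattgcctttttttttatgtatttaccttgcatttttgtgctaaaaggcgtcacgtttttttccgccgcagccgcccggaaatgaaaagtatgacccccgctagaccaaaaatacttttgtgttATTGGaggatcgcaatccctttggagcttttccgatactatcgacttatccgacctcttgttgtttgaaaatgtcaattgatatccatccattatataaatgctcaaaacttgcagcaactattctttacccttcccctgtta
IDH1 chr14:559153-559452 (minus strand): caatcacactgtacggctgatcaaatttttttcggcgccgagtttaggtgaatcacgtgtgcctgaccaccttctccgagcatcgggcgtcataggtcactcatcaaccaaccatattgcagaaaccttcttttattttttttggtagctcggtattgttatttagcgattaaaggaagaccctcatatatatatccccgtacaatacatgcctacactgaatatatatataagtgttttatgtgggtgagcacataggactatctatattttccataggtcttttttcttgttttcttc
SDH2 chr12:54082-54381 (minus strand): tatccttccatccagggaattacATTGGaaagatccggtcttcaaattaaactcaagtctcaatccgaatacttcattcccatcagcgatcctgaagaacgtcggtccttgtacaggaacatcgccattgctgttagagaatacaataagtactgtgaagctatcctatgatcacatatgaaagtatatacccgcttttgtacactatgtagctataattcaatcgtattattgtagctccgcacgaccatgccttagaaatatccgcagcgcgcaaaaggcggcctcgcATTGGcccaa
QCR7 chr4:1496699-1496998 (minus strand): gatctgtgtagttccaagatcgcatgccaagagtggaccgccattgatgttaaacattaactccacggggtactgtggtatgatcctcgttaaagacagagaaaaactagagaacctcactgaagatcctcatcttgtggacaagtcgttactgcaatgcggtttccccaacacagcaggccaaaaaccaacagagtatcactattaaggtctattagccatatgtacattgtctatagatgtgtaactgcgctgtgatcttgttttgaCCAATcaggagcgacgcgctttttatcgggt
CYC1 chr10:525885-526184 (plus strand): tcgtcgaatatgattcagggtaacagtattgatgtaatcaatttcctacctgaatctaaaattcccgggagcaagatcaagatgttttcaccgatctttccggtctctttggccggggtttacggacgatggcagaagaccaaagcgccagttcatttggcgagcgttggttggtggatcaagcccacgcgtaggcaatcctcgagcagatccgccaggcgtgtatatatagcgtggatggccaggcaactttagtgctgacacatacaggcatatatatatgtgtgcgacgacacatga
ATP17 chr4:1228161-1228460 (plus strand): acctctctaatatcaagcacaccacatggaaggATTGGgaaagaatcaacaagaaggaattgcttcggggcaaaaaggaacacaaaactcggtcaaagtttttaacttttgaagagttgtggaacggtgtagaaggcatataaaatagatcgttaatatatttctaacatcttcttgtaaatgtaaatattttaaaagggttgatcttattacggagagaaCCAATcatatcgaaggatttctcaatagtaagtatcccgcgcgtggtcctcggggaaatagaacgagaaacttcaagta

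Levels are given as mean sense coverage per base of the ORF. This divides by length, but coverage was uneven along ORFs, as given below, and the classes differed in length. The median ORF was of 1197 bases for the TCA cycle, 444 for complex III, 330 for complex IV with cytochrome c and 525 for ATP synthase. The part of length in the class levels was not tested. In wild type the TCA cycle genes were the lowest class, with a median of 3.1 and 2.92 in the 2 libraries, above the median of all ORFs tested at 1.62 and 2.01. ATP synthase genes had a median of 14.1 and 17.4, complex III genes 12.7 and 13.3, and complex IV with cytochrome c 26.6 and 22.6. The order between complex III and ATP synthase was not beyond the spread of their members. By wild-type mean the lowest member was KGD1, at 1.43 and 1.41. The highest were CYC1, ATP17, COX13 and QCR7, whose wild-type ranges overlapped. This order is by the mean over all bins used. QCR9, whose intron is marked only in part, had 56.2 and 37 in wild type on its 3 prime coding bins, against 15 and 10.5 on its other bins.

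**Figure D1:**
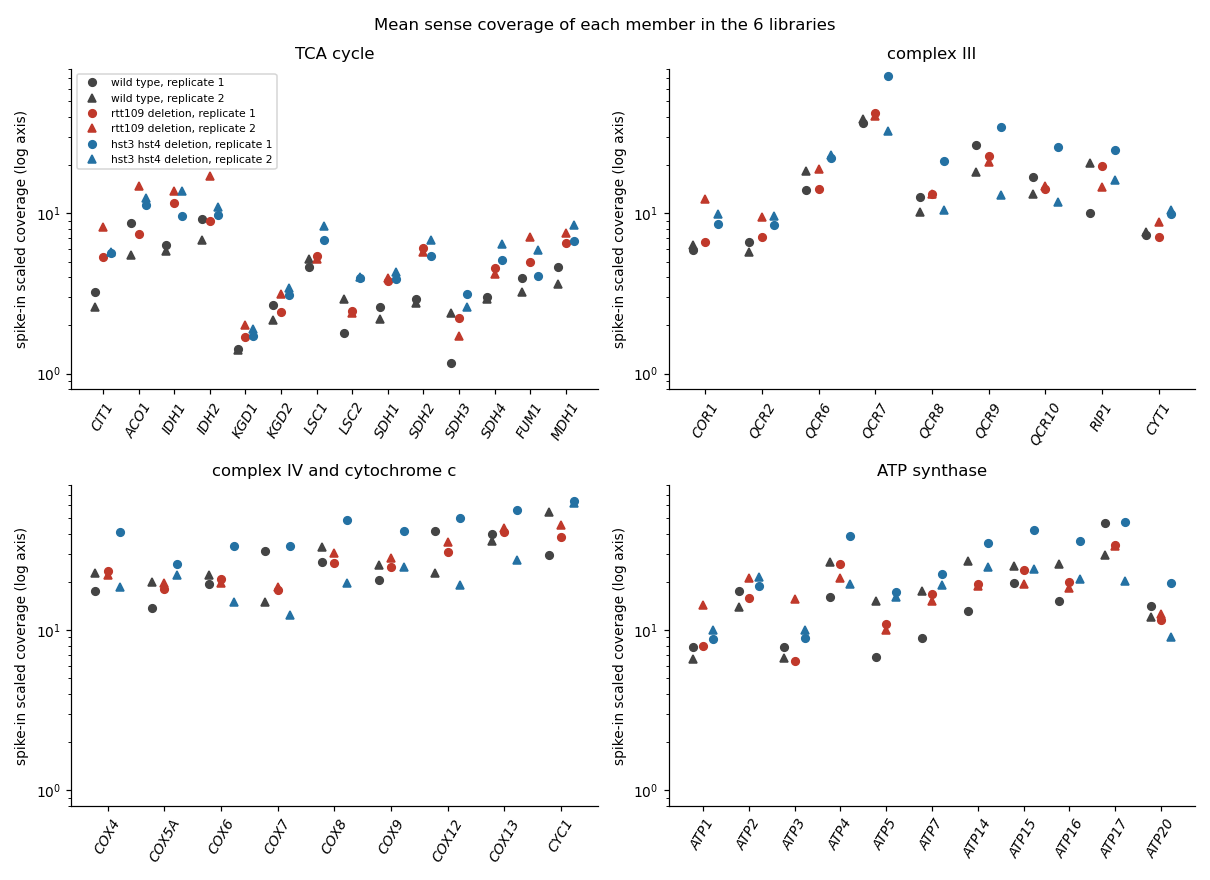
Spike-in scaled mean sense coverage (log axis) of each member in each library, by class. Colours mark the 3 groups, circles replicate 1 and triangles replicate 2. In the TCA cycle panel most mutant points lie above both wild-type points, while in the complex IV panel the 2 hst3 hst4 libraries lie far apart for most genes, with COX8 at 48.7 and 19.6.

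The first comparison asked how respiration genes stood when Rtt109 was missing. None of the 43 members passed the threshold (limma, Benjamini-Hochberg adjusted p under 0.05), where 3.34% of all ORFs tested did, 2.48% being higher and 0.864% lower. The TCA cycle genes stood highest of the 4 classes: the 14 had a median log2 fold change of 0.62 over wild type and all 14 were above 0, whereas the median of all ORFs was −0.37 and 22.3% were above 0. In 8 of the 14, both rtt109 libraries were above both wild-type libraries, against 11.6% of all ORFs. The unadjusted p was under 0.05 and the gene higher for 4 of the 14 (CIT1, IDH1, SDH2 and MDH1), against 5.57% of all ORFs. No member was lower at that p or had both libraries below both wild-type libraries, against 14.3% and 48.6% of all ORFs. The other classes had medians of 0.13 for complex III, 0.1 for complex IV with cytochrome c and 0.03 for ATP synthase, each above the median of all ORFs, and no member with an unadjusted p under 0.05. In the same order, both rtt109 libraries were above both wild-type libraries in 4 of 9, 1 of 9 and 1 of 11 genes, against 11.6% of all ORFs. Single libraries moved the class medians. That of the TCA cycle was 0.82 without wild type replicate 1, 0.8 without rtt109 replicate 1 and 0.44 without rtt109 replicate 2. Without wild type replicate 1 that of ATP synthase was −0.12 and that of complex IV 0.0045. The median of ATP synthase was 0.35 without wild type replicate 2, and that of complex III 0.22 without rtt109 replicate 1.

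The second comparison asked the same of cells without Hst3 and Hst4. Again none of the 43 members passed, where 2.36% of all ORFs did, 2.25% being higher and 0.115% lower. The TCA cycle genes had a median log2 fold change of 0.76, against 0.04 for all ORFs. All 14 were above 0, against 55.1% of all ORFs, and in 14 of 14 both hst3 hst4 libraries were above both wild-type libraries, against 21.3% of all ORFs. For 8 of the 14 the unadjusted p was under 0.05, against 6.82% of all ORFs that were higher at that p. No member was lower at that p or had both libraries below both wild-type libraries, against 1.13% and 9.14% of all ORFs. Both hst3 hst4 libraries were also above both wild-type libraries in 4 of 9 genes of complex III, 2 of 9 of complex IV with cytochrome c and 5 of 11 of ATP synthase. Medians were 0.45 for complex III, 0.12 for complex IV with cytochrome c and 0.4 for ATP synthase. These rested on single libraries: without hst3 hst4 replicate 1 complex III was at 0.16 and complex IV at −0.46, without replicate 2 they were at 0.64 and 0.69 and ATP synthase at 0.76, and without wild type replicate 1 ATP synthase was at 0.16. The 2 comparisons share the wild-type libraries.

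Between the mutants, none of the 43 members passed, where 1.5% of all ORFs did, 0.864% being higher and 0.634% lower. At an unadjusted p under 0.05 the count was also 0 in both directions, against 13.2% and 2.38% of all ORFs. In 32 of the 43 the log2 fold change was above 0, against 85.4% of all ORFs. Both hst3 hst4 libraries were above both rtt109 libraries in 13 of the 43, against 51.5%, and below them in none, against 4.36%. The TCA cycle median was 0.09 in the hst3 hst4 deletion over the rtt109 deletion, below the median of 0.41 over all ORFs. Complex III and ATP synthase both had a median of 0.23, and complex IV with cytochrome c 0.17. Without hst3 hst4 replicate 1 the medians of complex III and complex IV turned to −0.083 and −0.43, and without replicate 2 that of the TCA cycle turned to −0.032, while complex III, complex IV and ATP synthase stood at 0.55, 0.64 and 0.71. On the authors' columns with a mean of 1, where the median of all ORFs was 0.04, the medians turned to −0.3 for the TCA cycle, −0.17 for complex III and −0.16 for ATP synthase.

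**Figure D2:**
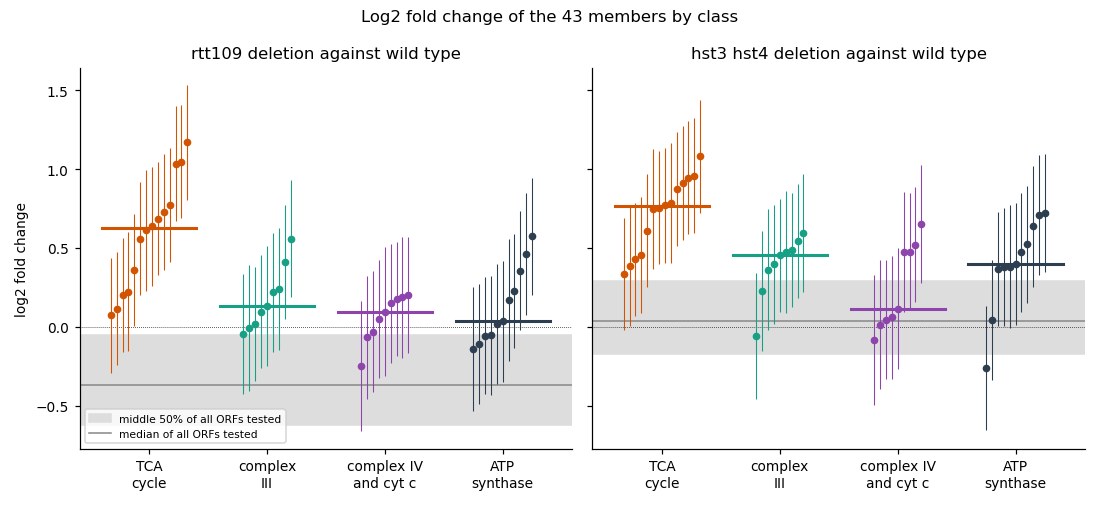
Log2 fold change of the 43 members against wild type by class, in the rtt109 deletion (left) and the hst3 hst4 deletion (right); points are genes, vertical lines their standard errors and horizontal bars class medians. The grey band is the middle 50% of all ORFs tested, with its median at −0.37 on the left and 0.04 on the right. On the left all class medians lie above the band, that of the TCA cycle highest at 0.62. On the right those of the TCA cycle (0.76), complex III (0.45) and ATP synthase (0.4) lie above it, and that of complex IV with cytochrome c (0.12) within it.

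The calls and the class medians in the rtt109 comparison depended on scale. On the authors' columns with a mean of 1, where the median of all ORFs was 0.05, 4 members rose: CIT1 by 1.58 (adjusted p = 0.0105 in limma), SDH2 by 1.46 (0.0185), IDH1 by 1.45 (0.0209) and MDH1 by 1.22 (0.0486). On those columns 4.7% of all ORFs were called higher. The class medians there were 1.06 for the TCA cycle, 0.55 for complex III, 0.52 for complex IV with cytochrome c and 0.45 for ATP synthase. With each library centred on its median, CIT1, SDH2 and IDH1 passed, where 3% of all ORFs were called higher. No member of another class passed in any setting, and no member passed in the hst3 hst4 comparisons.

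Citrate synthase opens the cycle by joining acetyl-CoA to oxaloacetate. Its gene CIT1 (YNR001C, chromosome 14, table bins 629651 to 631150) had a coverage of 3.22 and 2.62 in wild type, 5.31 and 8.2 without Rtt109, and 5.67 and 5.72 without Hst3 and Hst4. Every mutant library was above both wild-type libraries, and the rtt109 pair was the more spread. The log2 fold change was 1.17 (SE 0.36, adjusted p = 0.0708 in limma) in the rtt109 deletion and 0.96 (SE 0.36, adjusted p = 0.282) in the hst3 hst4 deletion. The adjusted p for the rtt109 deletion was 0.0415 in limma with only the 2 groups compared in the fit. The prior degrees of freedom were infinite in that fit, so the gene's own spread had no weight. With a replicate block CIT1 did not pass.

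Isocitrate dehydrogenase, made of Idh1 and Idh2, gives the first NADH of the cycle. IDH1 (YNL037C, chromosome 14, bins 557951 to 559100) stood at 6.35 and 5.85 in wild type, 11.5 and 13.7 without Rtt109, and 9.67 and 13.8 without Hst3 and Hst4. All 4 mutant libraries were above wild type, by a log2 fold change of 1.03 (SE 0.36, adjusted p = 0.12 in limma) and 0.91 (SE 0.36, adjusted p = 0.326). IDH2 (YOR136W), the most highly covered gene of the cycle in wild type, had 9.16 and 6.84 there, 8.96 and 17 without Rtt109, and 9.8 and 10.9 without Hst3 and Hst4. Its rtt109 libraries overlapped wild type and its hst3 hst4 libraries did not.

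Succinate dehydrogenase is at once an enzyme of the cycle and complex II of the respiratory chain. Its iron-sulfur subunit SDH2 (YLL041C, chromosome 12, bins 53151 to 54000) had a coverage of 2.92 and 2.74 in wild type, 6.06 and 5.76 without Rtt109, and 5.4 and 6.8 without Hst3 and Hst4. Neither mutant overlapped wild type, and the log2 fold changes were 1.05 (SE 0.36, adjusted p = 0.113 in limma) and 1.08 (SE 0.36, adjusted p = 0.14). The flavoprotein subunit SDH1 had 2.59 and 2.2 in wild type, 3.78 and 3.97 without Rtt109, and 3.87 and 4.29 without Hst3 and Hst4. The membrane anchor SDH4 stood at 2.99 and 2.91, then 4.55 and 4.2, then 5.08 and 6.47 in the same order. The other anchor, SDH3, overlapped wild type in the rtt109 deletion.

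Of the remaining steps, KGD1 (YIL125W) encodes the E1 subunit of the alpha-ketoglutarate dehydrogenase complex. It had 1.43 and 1.41 in wild type, 1.69 and 2.02 without Rtt109, and 1.72 and 1.91 without Hst3 and Hst4. Both mutants were above wild type without overlap, by a log2 fold change of 0.36 (SE 0.36) and 0.34 (SE 0.36). The succinyl-CoA ligase genes LSC1 and LSC2 had log2 fold changes of 0.11 and 0.07 without Rtt109, and 0.61 and 0.77 without Hst3 and Hst4, where their libraries were above those of both other groups. Malate dehydrogenase, MDH1, had log2 fold changes of 0.77 and 0.88, and fumarase, FUM1, 0.73 and 0.45.

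**Figure D3:**
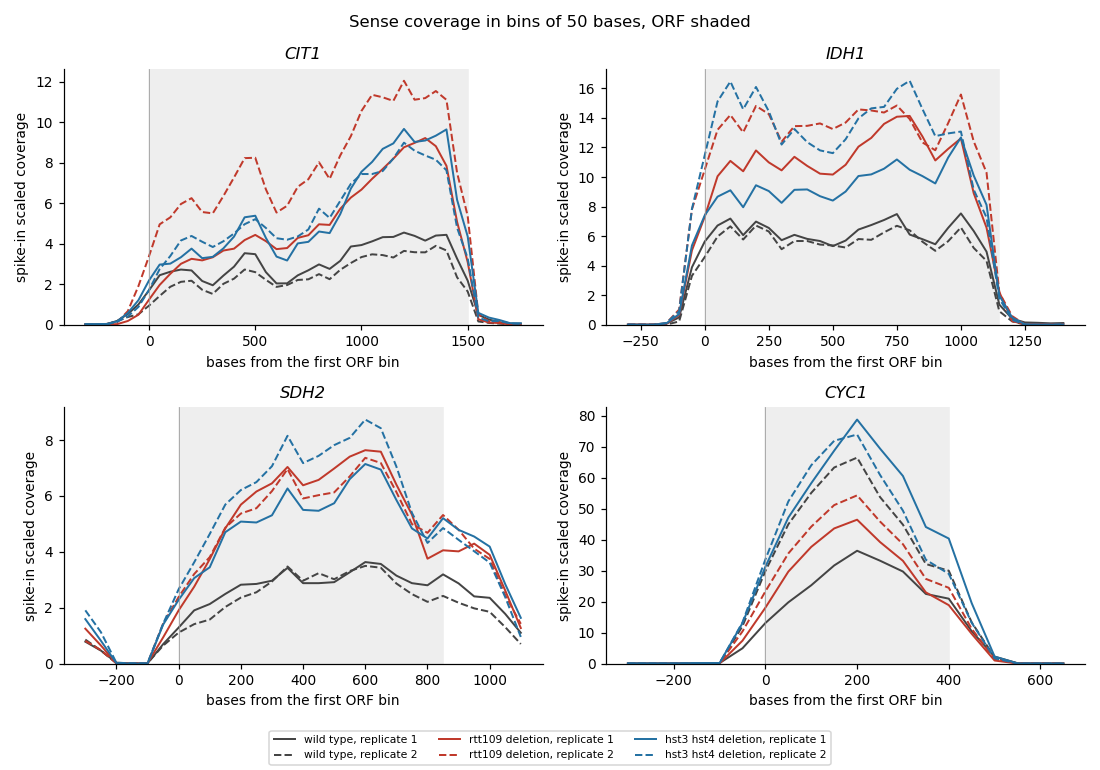
Spike-in scaled sense coverage in bins of 50 bases along CIT1, IDH1, SDH2 and CYC1, in the direction of transcription, with the ORF shaded and 0 at its first bin. In the 3 TCA cycle genes the mutant lines lie above both wild-type lines over most of the ORF; for CYC1 the rtt109 lines lie between the 2 wild-type lines over most of the ORF.

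Complex III passes electrons from ubiquinol to cytochrome c. Its 2 core proteins had the largest differences from wild type in the class. COR1 (YBL045C) stood at 5.9 and 6.31 in wild type, 6.61 and 12.3 without Rtt109, and 8.61 and 9.94 without Hst3 and Hst4. QCR2 (YPR191W) had 6.61 and 5.74, then 7.11 and 9.48, then 8.44 and 9.66. For both genes each mutant was above wild type without overlap, and the lowest adjusted p of the class was 0.361 in the rtt109 deletion and 0.899 in the hst3 hst4 deletion. The small subunit QCR6 had 14.1 and 18.4 in wild type, 14.2 and 18.8 without Rtt109, and 22.3 and 23 without Hst3 and Hst4. Only the hst3 hst4 libraries were clear of wild type. QCR7 was the most highly covered by the mean over all bins used. It had 36.8 and 38.9 in wild type and 42.4 and 40.7 without Rtt109. Without Hst3 and Hst4 it had 72.3 and 32.8, on either side of wild type.

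Complex IV reduces oxygen, and cytochrome c brings it electrons. CYC1 (YJR048W, chromosome 10, bins 526351 to 526750), the main cytochrome c gene of aerobic cells, had 29.4 and 54.8 in wild type, 38.3 and 45 without Rtt109, and 63.9 and 62.1 without Hst3 and Hst4. The rtt109 libraries lay within the wild-type range, and the hst3 hst4 libraries above it. The log2 fold changes were 0.05 (SE 0.37, adjusted p = 0.94 in limma) and 0.65 (SE 0.37, adjusted p = 0.815). CYC1 is on the stretch of chromosome 10 with the offset of 400 bases, which is longer than its ORF of 330 bases. On the bins as labelled its coverage would read 2.16 and 2.57 in wild type, and it would be the lowest of the class.

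COX5A, the main isoform of subunit 5, stood at 13.8 and 20 in wild type, 18 and 19.6 without Rtt109, and 25.8 and 22.2 without Hst3 and Hst4. COX9, a small subunit, had 20.7 and 25.6, then 24.9 and 28.1, then 41.3 and 24.8. COX5A was the other gene of the class whose hst3 hst4 libraries were above wild type, since those of COX9 overlapped. In the rtt109 deletion the log2 fold changes of the class ran from −0.25 for COX7 to 0.2 for COX9.

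ATP synthase consists of the catalytic F1 part and the membrane and stalk part that carries protons. Of the F1 genes, ATP1 (alpha subunit) had 7.86 and 6.57 in wild type, 7.97 and 14.4 without Rtt109, and 8.79 and 9.98 without Hst3 and Hst4. Both mutants were above wild type, the first by a small margin in replicate 1. Outside F1, the stalk genes ATP5 and ATP7 had the largest differences, in the hst3 hst4 deletion. ATP5 stood at 6.78 and 15.3 in wild type, 10.9 and 10 without Rtt109, and 17.3 and 16.1 without Hst3 and Hst4. ATP7 had 8.95 and 17.4, then 16.8 and 15.3, then 22.3 and 19.1. For both genes the 2 wild-type libraries were far apart, the rtt109 libraries lay between them, and the hst3 hst4 libraries lay above. ATP14, another stalk gene, had 13.1 and 27.2 in wild type, 19.4 and 18.9 without Rtt109, and 35 and 24.6 without Hst3 and Hst4. Its groups overlapped wild type in both comparisons. ATP17, the most highly covered gene of the class, had 46.8 and 29.5, then 33.9 and 33.4, then 47.5 and 20.2, and overlapped in each comparison.

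A difference between classes within 1 library does not depend on the spike-in. The mean log2 coverage of the TCA cycle genes minus that of the other 29 members was −2.23 and −2.43 in wild type, −1.92 and −1.81 without Rtt109, and −2.38 and −1.54 without Hst3 and Hst4. The group means were −2.33 ± 0.14 (SD, n = 2), −1.87 ± 0.079 (SD, n = 2) and −1.96 ± 0.59 (SD, n = 2). Both rtt109 libraries were thus above both wild-type libraries, by 0.46 on average, and this held against each of the other 3 classes. Of the hst3 hst4 libraries, replicate 1 lay within the wild-type range and replicate 2 above every other library, so the group did not separate from wild type. Without hst3 hst4 replicate 1 the difference from wild type was 0.79, and without replicate 2 it was −0.051.

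**Figure D4:**
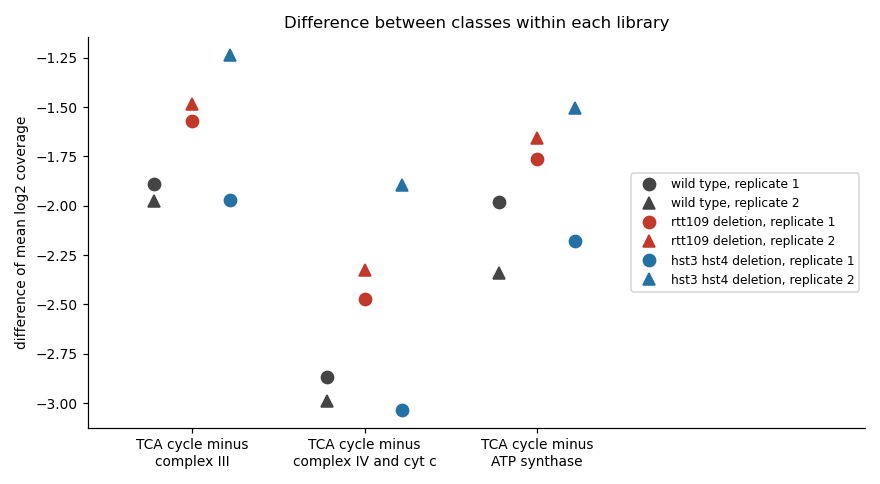
Mean log2 coverage of the TCA cycle genes minus that of each other class within each library, in log2 units; colours mark the groups, circles replicate 1 and triangles replicate 2. The rtt109 libraries lie above the wild-type libraries in all 3 columns, while the hst3 hst4 libraries lie far apart, from −3.03 to −1.9 against complex IV.

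The 2 hst3 hst4 libraries differed from each other by ORF length. Over the 811 ORFs tested of up to 600 bases, replicate 1 exceeded replicate 2 by a median of 0.72 on the log2 scale, against 0.01 over ORFs longer than 1200 bases. Of the 29 members outside the TCA cycle, 20 were of up to 600 bases, and their median was 1.07, whereas only 2 of the 14 TCA cycle genes were that short. The part of this length difference in the complex III, complex IV and ATP synthase values was not tested. With the length trend of each library removed, the class medians in the hst3 hst4 deletion over wild type were 0.44, 0.11 and 0.41, in that order. With the trend kept they were 0.45, 0.12 and 0.4. With it removed, CIT1 in the rtt109 deletion was the member that passed (1.26, adjusted p = 0.0458 in limma).

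**Figure D5:**
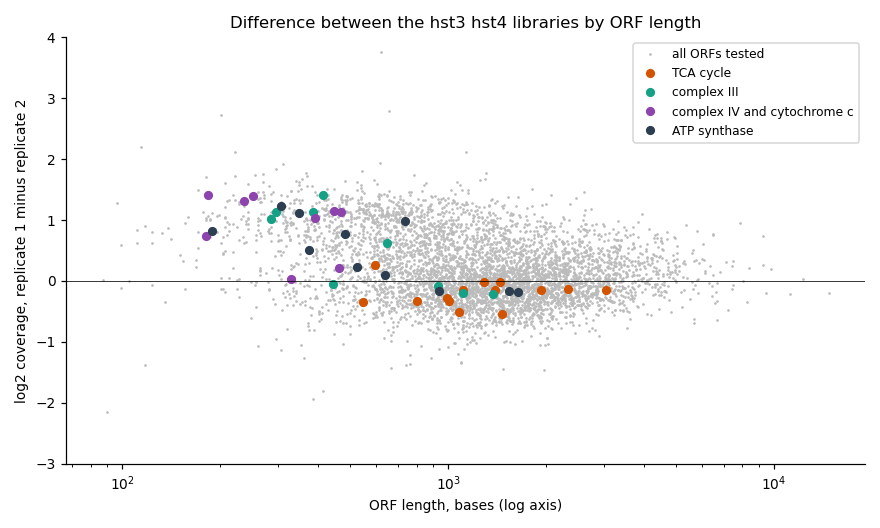
Log2 coverage of hst3 hst4 replicate 1 minus replicate 2 against ORF length in bases (log axis), for all ORFs tested (grey) and the members by class (colours). Short members of complexes III and IV and ATP synthase lie mostly above 0, with a median of 1.07 for the 20 of up to 600 bases, and the TCA cycle genes lie near 0.

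With an ORF cut into 3 equal stretches, the first had less coverage than the last, with a median ratio of 0.66 to 0.8 for the 14 TCA cycle genes over the 6 libraries, against 0.54 to 0.69 for all ORFs with 9 or more bins. Antisense coverage of the 43 members had a median of 0.093% to 1.45% of their coverage, by library, and was higher in wild type replicate 1, rtt109 replicate 1 and hst3 hst4 replicate 2 than in their partners. QCR9 has an intron that the table marks in part, and its log2 fold changes on its 3 prime coding bins, 0.0014 and −0.03, were close to those over all bins, −0.0076 and −0.06. The deposited replication timing score, whose unit is not stated, had a median of 45.5 over the members and 47.5 over all ORFs tested. It ran from 9.94 at LSC1 to 91.1 at COX6.

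Other respiration genes were read from lists by function. Of 18 other enzymes of the TCA cycle and its feeders, 2 rose in the rtt109 deletion, where 2.48% of all ORFs were called higher, and 2 in the hst3 hst4 deletion, against 2.25%. IDP2, the cytosolic NADP-dependent isocitrate dehydrogenase, had 0.194 and 0.296 in wild type, against 0.782 and 0.839 without Rtt109 (log2 fold change 1.52, adjusted p = 0.00917 in limma). SHH3, a homologue of SDH3, rose by 1.46 (adjusted p = 0.0315). In the hst3 hst4 deletion SHH3 rose by 2.13 (adjusted p = 0.00106) and CIT3, a minor mitochondrial citrate synthase, by 1.77 (adjusted p = 0.00226). SHH3 and CIT3 were low in wild type, at 0.0439 to 0.105, near the value of 0.0632 added before taking logarithms, so their fold changes are understated. Their mutant values also counted towards passing the filter on low coverage, which used the mean over all 6 libraries. The list medians were 0.21 and 0.26.

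Of 13 other electron transfer and ATP synthase genes tested, none passed in the rtt109 deletion, and 2 were higher at an unadjusted p under 0.05, against 5.57% of all ORFs. These were CYC7, the minor cytochrome c gene (1.42, adjusted p = 0.0719 in limma), and GUT2, the mitochondrial glycerol-3-phosphate dehydrogenase (1.17, adjusted p = 0.0733). In the hst3 hst4 deletion INH1, which encodes an inhibitor of ATP hydrolysis by F1, rose by 1.4 (adjusted p = 0.0247), from 5.16 and 6.86 in wild type to 18.7 and 13.4. The list medians were 0.52 and 0.61. The 14 regulators tested had a median log2 fold change of −0.25 in the rtt109 deletion, against −0.37 for all ORFs, and 3 were above 0. In 6 of them both rtt109 libraries were below both wild-type libraries, against 48.6% of all ORFs. Of the 14, 1 passed, where 3.34% of all ORFs did. ADR1, an activator of genes for growth on ethanol, rose by 1.43 in the rtt109 deletion (adjusted p = 0.018 in limma). HXK2, the hexokinase that also acts in glucose repression, had the next smallest p, with a log2 fold change of −0.93 (adjusted p = 0.169). In the hst3 hst4 deletion the median was 0.04, none passed and 1 was higher at an unadjusted p under 0.05. This was ADR1 (0.93, adjusted p = 0.309), and the next was ROX1, a repressor of hypoxic genes (−0.52, adjusted p = 0.998). HAP4, the activating subunit of the CCAAT-binding complex, and HXK2 were named after their values were seen. HAP4 had 3.89 and 1.56 in wild type, 3.27 and 7.84 without Rtt109, and 2.31 and 1.68 without Hst3 and Hst4. Its groups overlapped in both comparisons. Of 8 listed genes for gluconeogenesis, the glyoxylate cycle and ethanol use, 5 passed the filter on low coverage and were tested. ADH2, the glucose-repressed alcohol dehydrogenase, rose by 2.09 in the rtt109 deletion (adjusted p = 0.000199 in limma), from 0.0402 and 0.0294 in wild type to 0.421 and 0.297. Its wild-type values were below the 0.0632 added before taking logarithms. The filter used the mean over all 6 libraries, so the higher mutant values of ADH2 counted towards passing it. In the hst3 hst4 deletion none passed, and the log2 fold change of ADH2 was 1.27 (adjusted p = 0.0507) and that of the lactate transporter gene JEN1 1.16 (adjusted p = 0.0844). The medians of the 5 were 0.51 and 0.91. All 7 of these calls in the other lists were lost with the larger pseudocount and with no filter on low values. In the rtt109 deletion the call of SHH3 was also lost with libraries centred and with quantile normalization. A replicate block lost the calls of SHH3 and ADR1 there. In the hst3 hst4 deletion the calls of SHH3 and INH1 were also lost with libraries centred, and that of INH1 with a replicate block. Those of IDP2, SHH3, ADR1 and ADH2 in the rtt109 deletion were lost without either rtt109 library, and without a wild-type library for all but ADH2. Those of SHH3, CIT3 and INH1 in the hst3 hst4 deletion were lost with only the 2 groups in the fit, without either rtt109 library and with quantile normalization. Those of SHH3 and INH1 were also lost without hst3 hst4 replicate 1, and that of INH1 without wild type replicate 1.

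None passed among 11 genes of coenzyme Q synthesis, 29 assembly factors and 54 mitochondrial ribosomal protein genes, in either mutant against wild type (limma). At an unadjusted p under 0.05, in the same order, 0, 1 and 0 genes were higher and 0, 0 and 2 lower in the rtt109 deletion, and 0, 4 and 1 were higher in the hst3 hst4 deletion. Of all ORFs, 5.57% were higher and 14.3% lower in the first, and 6.82% higher in the second. Their medians were −0.22, −0.33 and −0.46 in the rtt109 deletion, near the median of −0.37 over all ORFs, and 0.34, 0.42 and 0.18 in the hst3 hst4 deletion. The assembly gene CYC3, which encodes the lyase that attaches haem to cytochrome c, had an adjusted p of 0.0703 in limma for the hst3 hst4 deletion, with a coverage of 2.81 and 2.82 in wild type against 5.56 and 7.8 there. The next was CYT2, the lyase for cytochrome c1 (0.8, adjusted p = 0.558). In the rtt109 deletion the log2 fold change of CYC3 was 0.73 (adjusted p = 0.249) and that of COX15, which acts in haem A synthesis, −0.67 (adjusted p = 0.281). The smallest p of the ribosomal protein genes were those of MRPL17 (−0.98, adjusted p = 0.148) and MRPL39 (−0.96, adjusted p = 0.161) in the rtt109 deletion, and of RSM7 (0.97, adjusted p = 0.37) and RSM19 (0.67, adjusted p = 0.746) in the hst3 hst4 deletion. Those of coenzyme Q synthesis were COQ8 (−0.56, adjusted p = 0.343) and COQ5 (−0.33, adjusted p = 0.595), and COQ9 (0.56, adjusted p = 0.901) and COQ7 (0.53, adjusted p = 0.962).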

How the data were processed

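The deposited table gives, for 6 libraries, the coverage of each strand in 50-base bins over 16 chromosomes, scaled by the authors with the spike-in, per the file headers. Other columns hold the same deposited coverage with a mean of 1, and 1 column holds a replication timing score that the authors took, per the file headers, from published work. Total RNA was mixed with Schizosaccharomyces pombe RNA and libraries were made with a stranded mRNA kit, per the labels' protocols. CASAVA 1.7.0 is named in the submitters' processing notes. No aligner or budding yeast build is named in the sources used here, so bin positions are on the table's own build. Of 240976 bins, 11670 (4.84%) hold an undefined letter in place of a value and were skipped. Read depth is not given, because the values are scaled coverage, and no counting interval is given. The commonest bin value above 0 ran from 0.00397 in wild type replicate 1 to 0.0124 in hst3 hst4 replicate 2. The libraries were thus scaled unequally, and a low value need not rest on the same depth in each.

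Coverage did not line up with the feature labels. Its offset was the shift of highest correlation between ORF labels and log2 coverage, with both strands and all libraries pooled and groups not compared, and each library alone gave the same offsets (6 of 6). The 2 strands were displaced in the same genomic direction. Aligning raised the share of coverage on the sense strand from 98% to 98.7% for Watson ORFs and from 98.3% to 98.5% for Crick ORFs. This step was chosen after the data were seen and was not in the planned design; the counts of calls, class medians and differences and the log2 fold changes of named genes were also computed on the bins as labelled, but not the list medians, antisense shares or profiles. The offset estimate was tested on simulated data.

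Sense coverage was averaged over the bins of each ORF, without the first and last bin, introns and bins shared with another ORF on that strand. Of 6525 ORFs, 5871 matched RefSeq by locus tag. The 10% with the lowest mean over all 6 libraries, 578 ORFs, were left out. limma 3.58.1 in R 4.3.3 was fitted to log2(value + 0.0632) over all 6 libraries, with Benjamini-Hochberg adjustment per comparison and a threshold of 0.05, and tested on simulated data; tables were read with Python 3.11.15. Fold changes are on that scale and are understated for low genes. In bulk RNA, fewer cells expressing a gene and less RNA per cell cannot be told apart.

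The members and gene lists were chosen with earlier results of these data known. Named in full were, per class, the 3 members with the largest difference from wild type, the highest and the lowest by wild-type level, and CYC1; of each other list, up to 4 genes past the threshold, or the 2 of smallest p. Promoter tables of RefSeq planned for use were not used here; windows were cut from the R64 genome, and their position was chosen after the data were seen. The 2 ORFs at mating-type loci are not analysed here. Alternatives were other scalings, pseudocounts 10 times larger and smaller, no filter, medians of bins, fits of 2 groups, blocks and leaving out each library.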

Additional observations from a re-analysis of the deposited data

How the results depend on the processing

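In the rtt109 comparison, members past the threshold numbered 0 with the spike-in columns, 4 on the columns with a mean of 1, 3 with libraries centred, and 1 with quantile normalization, with only the 2 groups compared and with the length trend removed; leaving out each library gave 0 to 1. In the comparisons of the hst3 hst4 deletion it was 0 in every setting run. On the bins as labelled the members past the threshold were 0 in each comparison, but CYC1 reversed to −0.27 and ATP14 to −0.014 in the rtt109 deletion, because other bins were read.

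All ORFs past the threshold in the rtt109 comparison fell from 174 to 2 with a pseudocount 10 times larger and to 4 with no filter, and ranged from 3 (without rtt109 replicate 2; 6 without replicate 1) to 282 (without wild type replicate 1) over left-out libraries. In the hst3 hst4 comparison with wild type, 123 became 47 with libraries centred, 28 with quantile normalization, 1 with the larger pseudocount, 3 with no filter and 7 with 2 groups, and ranged from 7 (without either rtt109 library) to 124. Between the mutants, 78 became 29 on the columns with a mean of 1, 15 centred, 24 with quantile normalization, 0 with the larger pseudocount and 2 with no filter, and ranged from 2 to 100 (2 and 3 without either rtt109 library). Calls higher and lower in the rtt109 comparison were 129 and 45 with the spike-in and 245 and 9 with a mean of 1; between the mutants they were 45 and 33, and 4 and 25. The cause was not tested.

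The labels do not say that replicate numbers pair libraries. With a replicate block, counts were 99, 84 and 6 in the 3 comparisons, with no member past the threshold; same-numbered libraries of wild type and the rtt109 deletion deviated with a correlation of −0.22, those of wild type and the hst3 hst4 deletion with 0.067 and those of the 2 mutants with 0.23, and a crossed replicate block, chosen after seeing the data, gave 221, 143 and 99.

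The TCA cycle minus other classes was 0.36 to 0.56 in the rtt109 comparison over left-out libraries, −0.051 to 0.79 in the hst3 hst4 comparison and −0.51 to 0.32 between the mutants. Over left-out libraries in the rtt109 comparison, these log2 fold changes took both signs: CYC1 from −0.40 to 0.50, ATP14 from −0.50 to 0.54, ATP5 from −0.55 to 0.62, QCR6 from −0.18 to 0.22, ATP7 from −0.12 to 0.84, COX5A from −0.089 to 0.44, ATP17 from −0.47 to 0.19 and COQ5 from −0.89 to 0.23. In the hst3 hst4 comparison QCR7 ran from −0.21 to 0.93 and ATP17 from −0.88 to 0.35. ATP17 in the rtt109 comparison was also 0.31 on the columns with a mean of 1, where COQ5 was 0.087, and 0.16 centred and 0.24 with quantile normalization. Over the 17 members named in full, in both comparisons with wild type, 583 of 612 values kept direction and side of the threshold, 11 passed it newly and 18 reversed. For the genes of other lists, 383 of 450 kept both, 47 lost a call, 18 gained one and 2 reversed. The blocks, the 2-group fits, no filter and leaving out a library of the group not compared cannot move a log2 fold change, only its p. Direction was therefore fixed in those settings, and the counts that kept it include them. With 2 libraries a group, 1 library decides many values.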
